A study of Rattus norvegicus with 3 samples.

Results

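The genes described here are the insulin-like growth factor (IGF) ligands Igf1 and Igf2, the receptor gene Igf1r, the IGF binding protein genes Igfbp3, Igfbp4 and Igfbp5, the receptor substrate genes Irs1 and Irs2, and the kinase genes Akt1 and Akt2. They are 10 named genes, taken wherever a probe set of the array was annotated with exactly 1 of their symbols, and 9 of them were found among 14506 genes measured. Each of the 9 had 1 probe set, so choosing the brightest probe set made no difference, and all 9 were bright enough for comparison. Irs2 was not analysed here.

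Expression was measured in 3 groups of 6 rats of a strain labelled Brown, aged 7 weeks, in the soleus, a slow calf muscle that holds posture. In group DN the muscle was denervated, in group TS the rats were suspended by the tail, which takes the load off the hind limbs, and group Ct had neither. All 3 groups, Ct included, were irradiated continuously for 2 weeks to a total absorbed dose of 50 mSv, so a difference from unirradiated muscle is not measured by any of the comparisons. The RNA of each group's 6 animals was combined and put on 1 Affymetrix Rat Gene 1.0 ST array, so no spread between animals is known, no test was possible, and every difference describes these pools. The pools carried muscle RNA as labelled: the slow myosin gene Myh7 read 13.06 in DN, 13.24 in TS and 13.62 in Ct, and the skeletal actin gene Acta1 read 13.90 in DN, 13.99 in TS and 13.99 in Ct, close to the top of the scale.

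IGF1 and IGF2 are secreted growth factors that act mainly through the IGF1 receptor, a tyrosine kinase at the cell surface. The receptor phosphorylates the insulin receptor substrates, which recruit PI3 kinase, and the lipid made by PI3 kinase activates Akt, which favours protein synthesis through mTOR and keeps FOXO transcription factors out of the nucleus. IGF binding proteins hold the ligands outside the cell and can limit or prolong their action. In skeletal muscle the pathway is known for its part in fibre growth and in the response to load.

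Values are log2 signals as deposited, and a difference of 1 is a 2-fold difference. In denervated soleus, 3 of the 9 members were at least 1.5-fold higher than in Ct, namely Igfbp5, Akt2 and Igfbp4, and 1 was at least 1.5-fold lower, Irs1. Among all 10154 genes compared, the same limit was passed upward by 4.93% and downward by 5.53%, or by 10.5% in either direction. In suspended soleus, Igfbp5, Igfbp4 and Igf1r were at least 1.5-fold higher than in Ct and no member was lower by as much, against 5.89% of all genes compared that were higher, 2.68% that were lower and 8.57% in either direction. The balance of the background in TS depends on the scaling: 598 genes were higher and 272 lower as deposited, and 357 higher and 400 lower once each array was centred on its median over the genes compared, which lowers every TS minus Ct difference by 0.13. The median difference of the members was 0.54 for DN minus Ct, beside 0.00 over all genes compared, and 0.33 for TS minus Ct, beside 0.02. Both comparisons use the same Ct array, so they are not independent of each other. The members were chosen with earlier results of these data known, and 42.9% of all genes compared were equal in DN and Ct. With the filter at the 50th percentile, which all 9 members pass, 12.7% of genes were past 1.5-fold in DN minus Ct and 9.86% in TS minus Ct. Ct was the lowest of the 3 pools for 6 members (Igf1, Igf1r, Igfbp3, Igfbp4, Igfbp5 and Akt2), DN was the lowest for Irs1 and Akt1, and TS was the lowest for Igf2. Igfbp3 belongs to the 6 by a difference of 0.00 from DN and of 0.02 from TS, each of which turned negative under 4 of 9 settings. In a pooled tissue, a change in how many cells of a type are present and a change in RNA per cell cannot be told apart.

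**Figure D1:**
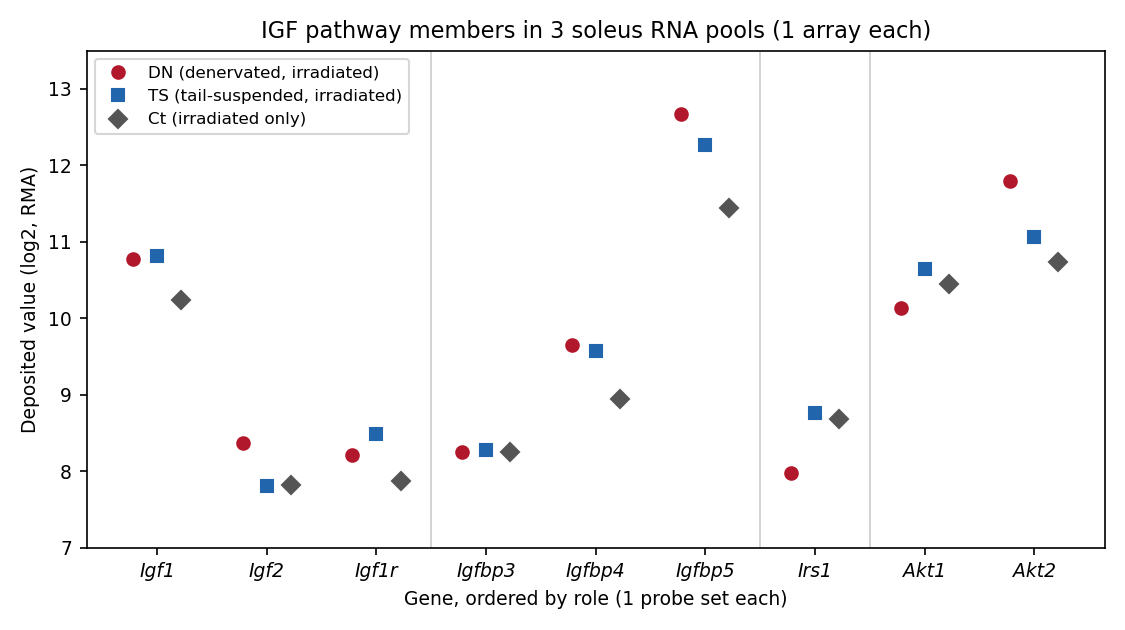
Deposited log2 value (vertical axis) of the 9 measured members in the DN, TS and Ct pools, with 1 point per array and therefore no error bars. Points are to be compared within a gene, since probe sets differ in brightness: Igfbp5 stands at 12.67 in DN, 12.27 in TS and 11.44 in Ct, and Irs1 at 7.98 in DN, 8.76 in TS and 8.69 in Ct.

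The upstream sequences of Igfbp5, Akt2 and Irs1 are given because the first 2 stood furthest above Ct in denervated muscle and Irs1 was the only member past the 1.5-fold limit in the lower direction. Each runs 5′ to 3′ over the 250 bases before the annotated start of transcription, from RefSeq on the rat build GRCr8, which is not known to be the build behind the array's annotation. Capitals mark matches to any of 4 patterns searched on both strands: the E-box CAGCTG, the forkhead element GTAAACA, the STAT element TTCNNNGAA and the TATA box TATAAA.
Igfbp5, chr9:81914188-81914437, minus strand: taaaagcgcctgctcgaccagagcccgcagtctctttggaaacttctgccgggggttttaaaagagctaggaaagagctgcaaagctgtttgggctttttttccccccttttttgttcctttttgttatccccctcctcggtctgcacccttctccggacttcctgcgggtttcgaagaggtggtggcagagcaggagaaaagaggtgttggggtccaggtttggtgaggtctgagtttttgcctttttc
Akt2, chr1:92021667-92021916, plus strand: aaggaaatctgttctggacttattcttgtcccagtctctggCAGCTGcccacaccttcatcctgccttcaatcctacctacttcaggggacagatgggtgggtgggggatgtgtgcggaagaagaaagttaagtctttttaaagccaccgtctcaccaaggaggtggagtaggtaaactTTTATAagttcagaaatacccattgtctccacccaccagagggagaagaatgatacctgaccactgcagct
Irs1, chr9:91053960-91054209, minus strand: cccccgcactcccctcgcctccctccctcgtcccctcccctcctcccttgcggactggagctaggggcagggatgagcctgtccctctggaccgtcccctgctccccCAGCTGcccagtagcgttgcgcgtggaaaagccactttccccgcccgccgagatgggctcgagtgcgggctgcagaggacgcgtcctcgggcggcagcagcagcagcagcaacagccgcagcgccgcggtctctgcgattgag
Counting -1 as the last base before the start, Akt2 held an E-box from -209 to -204 and a TATA box on the opposite strand from -71 to -66, Irs1 held an E-box from -143 to -138, and the Igfbp5 window held none of the 4 patterns. The matches did not overlap. Over 33469 such windows of the same length, 12.0% held the E-box, 3.21% the forkhead element, 7.67% the STAT element and 12.9% the TATA box. The windows of Igf1, Igf2 (which has a pair of them), Igf1r, Igfbp3 and Akt1 held none of the patterns either, and that of Igfbp4 held a TATA box from -40 to -35. A match is a string of letters and says nothing on binding.

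Among the ligands, Igf1 was similar in both treated pools and lower in Ct. Igf1 (probe set 10894695) read 10.78 in DN, 10.82 in TS and 10.25 in Ct. The difference was 0.54, or 1.45-fold, for DN minus Ct and 0.57, or 1.49-fold, for TS minus Ct, both short of the 1.5-fold limit of 0.58, while DN and TS lay 0.04 apart. Of all genes compared, 5.52% were at least as high in DN minus Ct and 6.16% in TS minus Ct. The probe set is annotated with 4 RefSeq transcripts of Igf1, so its splice forms were not distinguished.

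Igf2, the growth factor of fetal tissues that is also made by differentiating myoblasts, was higher in denervated muscle, while suspended muscle lay at the level of Ct. Its probe set (10726999) read 8.37 in DN, 7.81 in TS and 7.82 in Ct. DN minus Ct was 0.56 (1.47-fold), TS minus Ct was -0.01, and DN minus TS was 0.56. Thus denervated soleus stood apart from the other two pools, by a difference just short of 1.5-fold, and 5.25% of all genes compared were at least as high in DN minus Ct. The difference between the ligands, Igf1 minus Igf2, was -0.02 in DN minus Ct and 0.58 in TS minus Ct.

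The receptor gene Igf1r (10707889) read 8.22 in DN, 8.49 in TS and 7.87 in Ct. Suspended muscle was highest, by 0.61 (1.53-fold) over Ct, and denervated muscle lay between, 0.35 (1.27-fold) above Ct. The TS value is only just past the 1.5-fold limit and fell short of it under 5 of 8 alternative settings, with a lowest value of 0.48. Of all genes compared, 5.26% were at least as high in TS minus Ct.

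The binding protein genes differed among themselves. Igfbp5, the main binding protein gene of the myogenic lineage, had the largest difference of any member in both comparisons with Ct. Igfbp5 (10928837) read 12.67 in DN, 12.27 in TS and 11.44 in Ct, which is 1.23 (2.34-fold) higher in DN and 0.83 (1.77-fold) higher in TS than in Ct. DN was above TS by 0.40. Only 1.56% of all genes compared were at least as high in DN minus Ct and 2.38% in TS minus Ct.

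Igfbp4, whose product mostly restrains IGF action and is cut by the protease PAPP-A, had similar values in both treated pools, above Ct. Its probe set (10738140) read 9.66 in DN, 9.57 in TS and 8.95 in Ct. The differences from Ct were 0.70 (1.63-fold) in DN and 0.62 (1.53-fold) in TS, and DN and TS differed by 0.09. The TS difference was past the 1.5-fold limit under 6 of 9 settings, with a lowest value of 0.48. Igfbp3 (10778390), the main carrier of IGFs in blood serum, read 8.25 in DN, 8.27 in TS and 8.25 in Ct, so the pools were within 0.02 of each other. Median polish of 3 arrays often returns nearly or exactly equal values (42.9% of genes compared were equal in DN and Ct), so a difference near 0 does not show that the gene did not differ. Relative to Igfbp3 on the same arrays, Igfbp5 was higher by 1.23 in DN minus Ct and by 0.81 in TS minus Ct. Since the Igfbp3 differences were near 0, these values nearly repeat those of Igfbp5 itself.

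**Figure D2:**
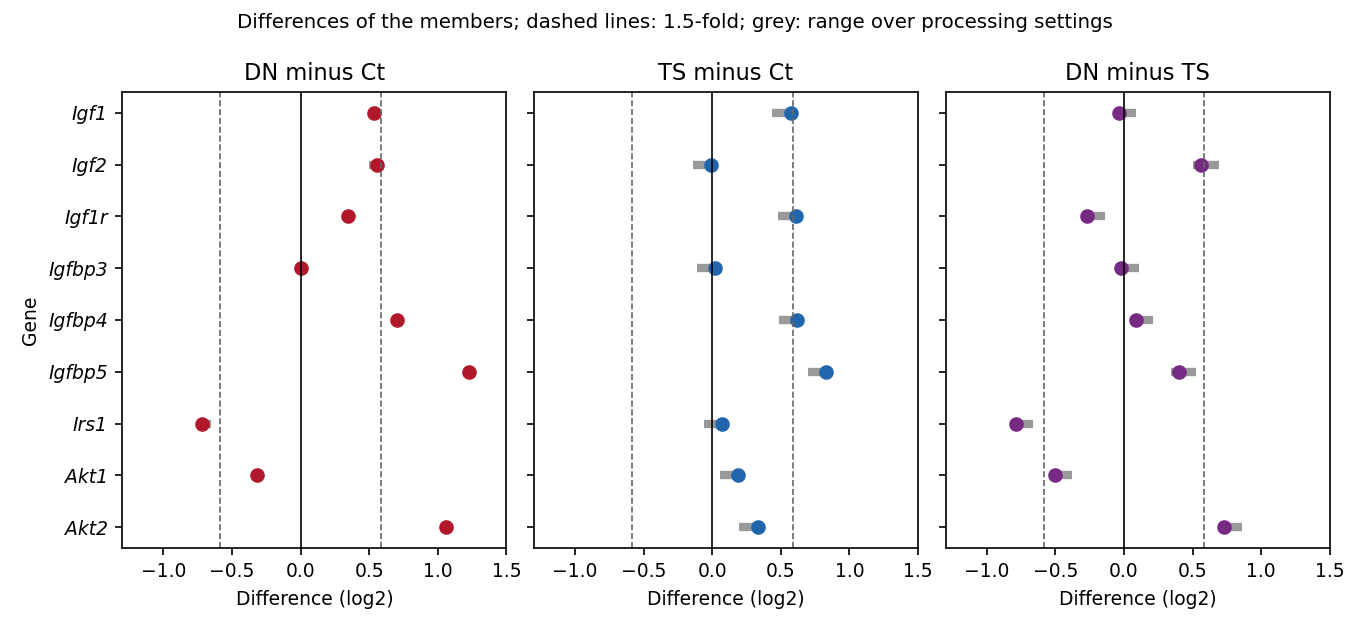
Log2 differences (horizontal axes) of the members in the 3 pairs of pools, with points for the values as deposited, grey bars for the range over 9 processing settings and dashed lines at 1.5-fold. Igfbp5, Akt2, Igfbp4 and Irs1 lie beyond the limit in DN minus Ct at every setting, whereas the bars of Igf1r and Igfbp4 cross it in TS minus Ct.

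Irs1, the substrate that links the insulin and IGF1 receptors to PI3 kinase, was lower in denervated muscle. Irs1 (10929390) read 7.98 in DN, 8.76 in TS and 8.69 in Ct. DN minus Ct was -0.72, a ratio of 0.61, TS minus Ct was 0.07, and DN minus TS was -0.79. TS and Ct lay close together and DN well below both. Of all genes compared, 4.21% were at least as low in DN minus Ct. Under 3 of the alternative scalings the small TS value turned negative, to -0.06 at the lowest.

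The Akt genes went in opposite directions in denervated muscle. Akt2, the isoform most closely tied to insulin-stimulated glucose uptake, read 11.80 in DN, 11.07 in TS and 10.74 in Ct (10705394). It was 1.06 (2.09-fold) higher in DN than in Ct, with 2.06% of all genes compared at least as high, and 0.33 (1.26-fold) higher in TS than in Ct. Akt1, the widely expressed isoform tied to growth, read 10.14 in DN, 10.64 in TS and 10.45 in Ct (10892316). That is -0.31 (a ratio of 0.80) for DN minus Ct and 0.19 (1.14-fold) for TS minus Ct, neither past 1.5-fold. The Akt2 minus Akt1 difference therefore shifted by 1.38 in DN minus Ct and by 0.14 in TS minus Ct.

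Set directly against each other, the treated pools differed by at least 1.5-fold in 2 members, Akt2 (0.73 for DN minus TS) and Irs1 (-0.79). Over all genes compared, 3.2% were at least as far apart in the higher direction and 5.93% in the lower, or 9.13% in either. Igf2 (0.56) and Akt1 (-0.50) came closest to the limit from within. The remaining members, Igf1, Igf1r, Igfbp3, Igfbp4 and Igfbp5, lay between -0.27 and 0.40. The median of the members for DN minus TS was -0.02, beside 0.00 over all genes compared.

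**Figure D3:**
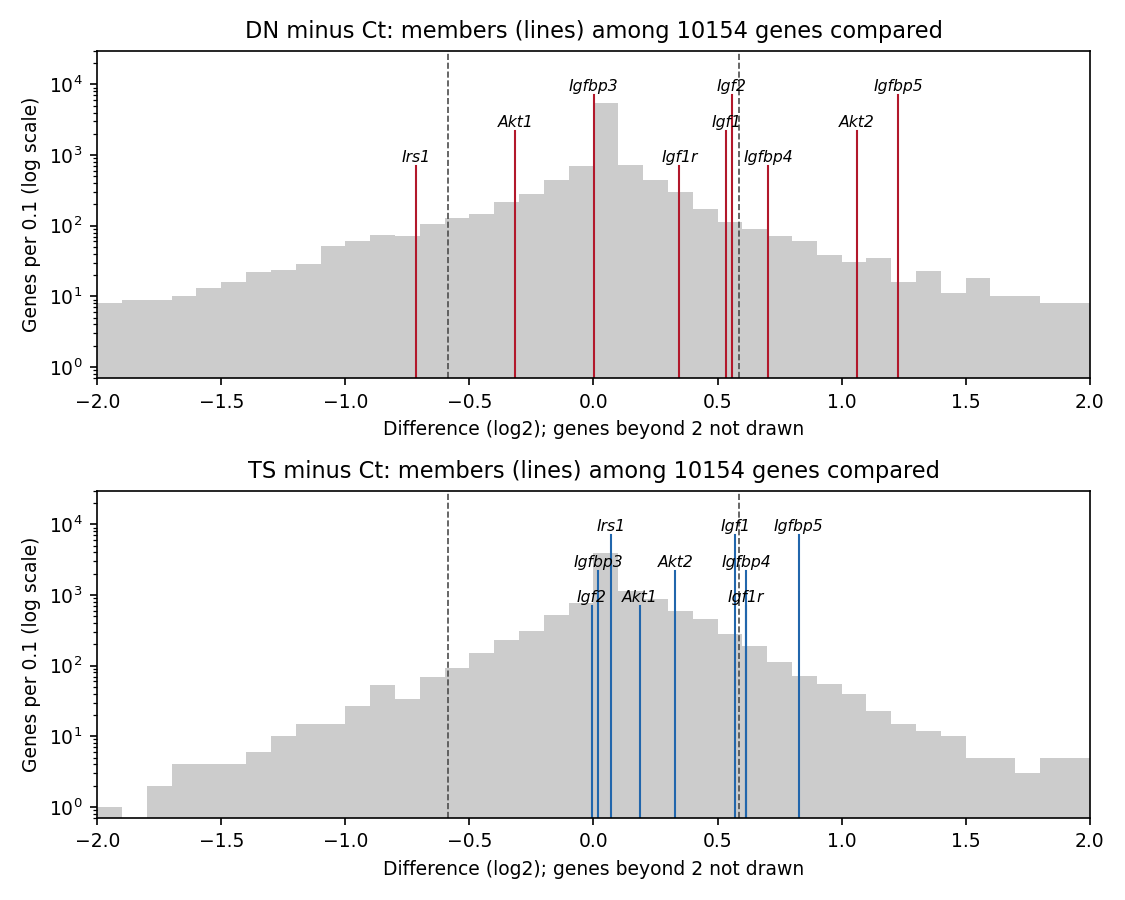
Number of genes (vertical axis, log scale) in each 0.1 interval of log2 difference for DN minus Ct and TS minus Ct over 10154 genes compared, with the 9 members drawn as lines and 1.5-fold as dashed lines. In DN minus Ct the members run from Irs1 at -0.72 to Igfbp5 at 1.23, and in TS minus Ct from Igf2 at -0.01 to Igfbp5 at 0.83; the tall bar from 0 to 0.1 holds the genes with equal values.

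The genes whose pair of differences from Ct lay nearest to each member past 1.5-fold were found by Euclidean distance over the 2 differences, which rest on 3 arrays. Nomo1, Map3k14 and Sort1 were nearest to Igfbp5, at distances of 0.04, 0.04 and 0.06. Stom, the dystrophin gene Dmd and Mad2l2 were nearest to Akt2 (0.04, 0.04 and 0.05), and Kif13a, Mecr and the glycolytic enzyme gene Tpi1 to Irs1 (0.01, 0.01 and 0.05). Vof16, Sync and Ifitm1 were nearest to Igfbp4 (0.03, 0.05 and 0.05), and Ddhd1, Alg8 and Eif5 to Igf1r (0.02, 0.02 and 0.02).

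Other genes of the pathway were taken from 6 lists of 89 genes in all, of which 77 were measured and 73 were bright enough. In DN, 9 of the 73 were at least 1.5-fold higher and 5 lower than in Ct, with a median of 0.00, beside 4.93% and 5.53% of all genes compared. In TS 11 were higher and 2 lower, with a median of 0.17, beside 5.89% and 2.68%, and these counts became 8 and 4 with each array centred over the genes compared. The same shares of all genes compared stand beside the counts of each list below.

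Outside the cell, the other IGF receptors, binding proteins and binding protein proteases stayed within the limit. None of the 9 bright enough was 1.5-fold different from Ct in DN or in TS, and the list medians were 0.00 in DN and -0.02 in TS. Stc1, which encodes a secreted stanniocalcin, was at -0.56 in both DN and TS, but it was dim, at 5.74 in DN, 5.74 in TS and 6.30 in Ct, close to the limit of 5.72. Igfbp6 was at -0.32 in DN and -0.19 in TS, the protease gene Htra1 at -0.11 and -0.45, and the insulin receptor gene Insr at -0.21 and -0.15. Pappa, which encodes PAPP-A, was too dim to compare.

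In the PI3 kinase core, the regulatory subunit gene Pik3r1 followed the order seen for Igfbp5 and Akt2. It read 10.76 in DN, 9.94 in TS and 9.38 in Ct, higher by 1.38 (2.61-fold) in DN and by 0.56 in TS. It was the only 1 of 10 genes past 1.5-fold in DN, where the list median was 0.00. In TS the median was 0.22 and the single gene past the limit was another regulatory subunit gene, Pik3r3, at -0.61. The adaptor gene Shc1 stood at 0.37 in DN and 0.50 in TS, and the catalytic subunit gene Pik3cb at 0.00 and 0.39.

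Genes that restrain insulin and IGF signalling differed in both directions. Of 16, 3 were higher and 2 lower in DN (median 0.00), and 3 were higher and 1 lower in TS (median 0.20). Of all genes compared, 4.93% were higher and 5.53% lower in DN, and 5.89% and 2.68% in TS. Socs3, a cytokine-induced inhibitor that also acts on receptor substrates, read 7.98 in DN, 9.28 in TS and 6.99 in Ct, higher by 0.99 in DN and by 2.29 (4.91-fold) in TS. Inppl1, which encodes the lipid phosphatase SHIP2, was higher by 0.97 in DN and by 0.97 in TS, and Pik3ip1, an inhibitor of PI3 kinase, by 0.62 and 1.07. Grb14, an adaptor that inhibits the insulin receptor, read 8.43 in DN, 10.04 in TS and 10.09 in Ct, so that, like Irs1, it was lower in DN (-1.65, a ratio of 0.32) and close to Ct in TS. Myostatin (Mstn), which restrains muscle growth, was the other lower gene, at -0.66 in DN and -0.89 in TS.

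Further down the pathway, the mTOR branch held 1 higher and 1 lower gene of 15 in DN and none in TS, with medians of 0.00 in DN and 0.17 in TS. Here too, 4.93% of all genes compared were higher and 5.53% lower in DN, and 5.89% and 2.68% in TS. The sestrin genes, whose products restrain mTOR complex 1, went apart: Sesn3 was higher by 0.76 in DN and Sesn1 stood at -0.93, while both were near Ct in TS (-0.03 and 0.08). Tsc1 and Eif4ebp1 were at 0.55 and 0.52 in TS. In the GSK3 and FOXO branch, 2 of 15 were higher and 2 lower in DN, and 4 were higher in TS. Gadd45a, a stress gene, was higher by 3.15 in DN and 1.35 in TS, and Txnip, which restrains glucose uptake, by 0.86 and 0.65. Fbxo32 and Klf15 were past the limit in TS only, at 0.65 and 0.72, and stood at 0.13 and -0.30 in DN. The insulin-responsive glucose transporter gene Slc2a4 read 9.82 in DN, 11.42 in TS and 11.73 in Ct (-1.92 in DN), and glycogen synthase (Gys1) was at -0.98 in DN. Both were lowest in DN and also below Ct in TS (-0.31 for Slc2a4 and -0.45 for Gys1). A link with the Akt2 or Irs1 values was not tested.

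The growth hormone receptor axis, which drives Igf1 expression in liver and other tissues, held 2 higher genes of 8 in DN and 4 in TS, and none lower. Of all genes compared, 4.93% were higher in DN and 5.89% in TS. The kinase gene Jak2 read 10.28 in DN, 9.82 in TS and 8.81 in Ct, higher by 1.47 in DN and 1.01 in TS. Cish, a STAT5-induced inhibitor, was higher by 0.79 in DN and 2.39 (5.24-fold) in TS, and Bcl6, which STAT5 represses in liver, by 0.23 and 0.81. The adaptor gene Sh2b1 was at 0.59 in TS, past the limit under 3 of 9 settings. The receptor gene Ghr (-0.13 in DN, -0.10 in TS) and the STAT5 target Socs2 (0.00 and 0.11) were near Ct.

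**Figure D4:**
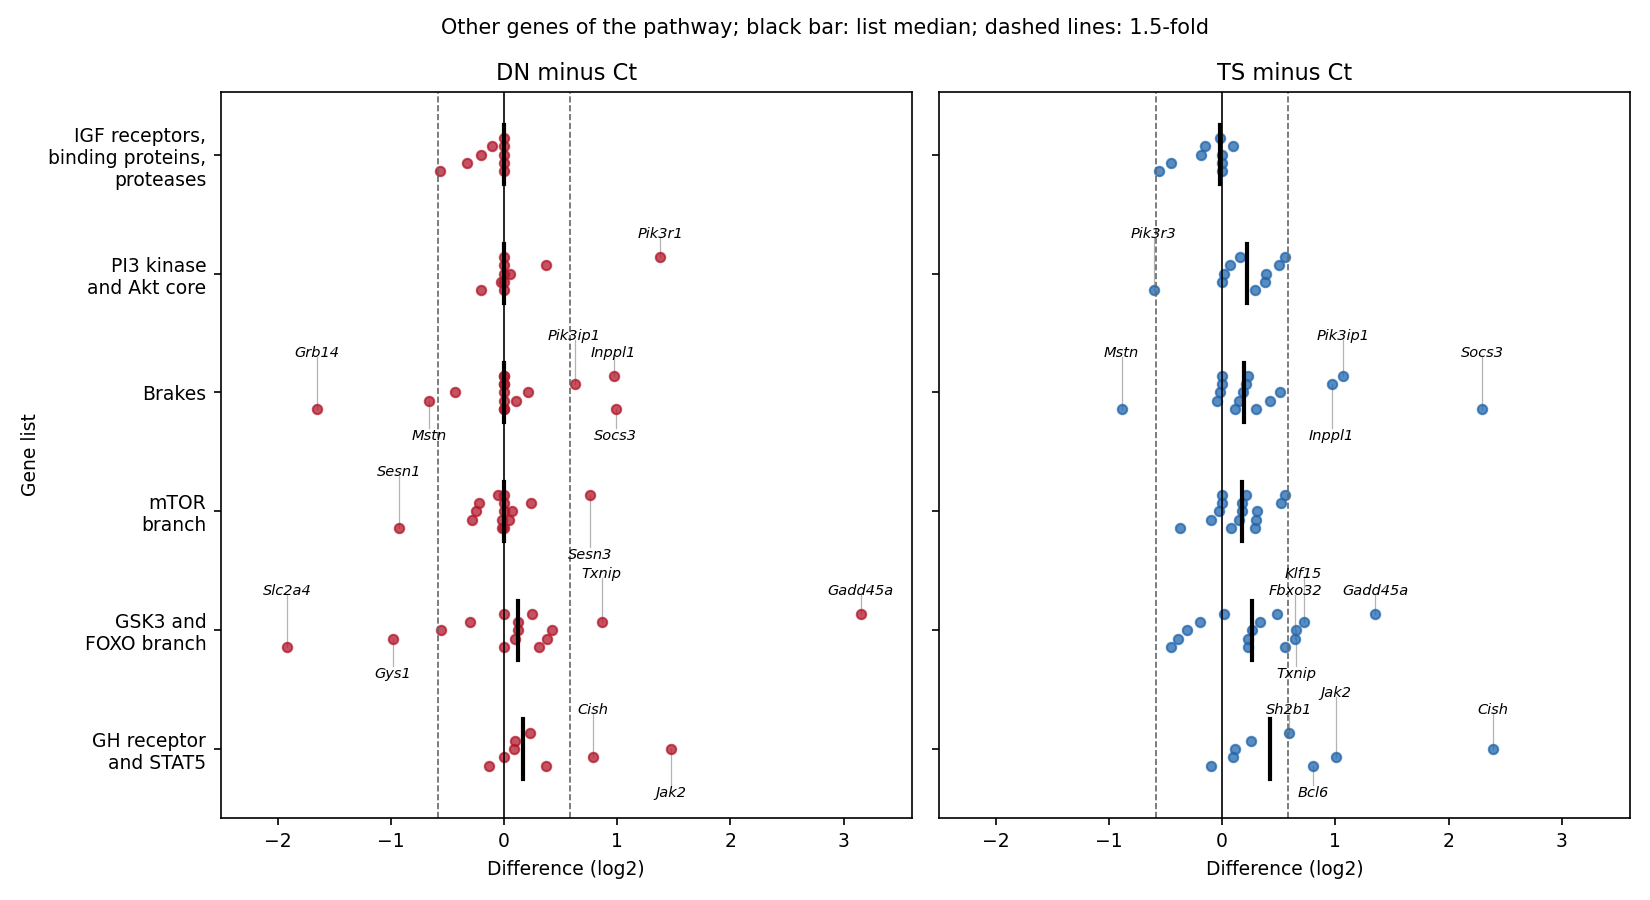
Log2 differences (horizontal axes) of 73 genes of the pathway by list for DN minus Ct and TS minus Ct; each point is a gene, black bars are list medians, dashed lines are 1.5-fold and genes beyond them are named. Gadd45a (3.15) and Slc2a4 (-1.92) are the outermost points in DN minus Ct, and Cish (2.39) and Socs3 (2.29) in TS minus Ct.

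Markers of cells that can make or respond to IGFs also differed between the pools, and their part in the results above was not tested. Macrophages are a known source of Igf1: 4 of 11 macrophage markers were at least 1.5-fold higher in TS and none of 11 in DN, beside 5.89% and 4.93% of all genes compared. The TS count was 2 with each array centred over the genes compared, and the summed linear signal of the markers was 7678 in DN, 9858 in TS and 7038 in Ct. Cd163 had the largest log2 difference of these markers in TS (1.17) and stood at 0.31 in DN. Of 8 fibroblast markers, 1 was at least 1.5-fold higher in DN and 2 in TS, led by Fbln1 (1.27 in DN, 0.73 in TS) and Pdgfra (0.40 in DN, 0.81 in TS). Col1a1 stood at -0.23 in DN and 0.00 in TS, and Dpt at 0.17 and -0.32. In DN, 4 of the 8 were above Ct, 2 equal to it and 2 below (median 0.07). In TS these counts were 5, 1 and 2 (median 0.01). The sums were 29902 in DN, 28857 in TS and 29203 in Ct. Of 7 satellite cell markers measured, 5 were bright enough. Of these, 2 were higher in each treated pool, Myf5 (2.00 in DN, 0.82 in TS) and Met (0.71 in DN, 0.86 in TS). Chodl was lower in TS (-0.90), Cdh15 stood at 0.11 in DN and -0.004 in TS, and Vcam1 at 0.00 in both. The sums were 2483 in DN, 1767 in TS and 1543 in Ct. Myf5, the brightest marker in DN at 10.15, weighed most in the DN sum. Pax3 and Calcr were below the limit of brightness, and Pax7 was not analysed here. Of 9 adipocyte markers, 4 were higher in each treated pool and 1, Lpl, was lower in TS. Of all genes compared, 4.93% were higher in DN, and 5.89% were higher and 2.68% lower in TS. The adipocyte markers summed to 10898 in DN, 8034 in TS and 10135 in Ct, with Adipoq higher by 2.10 in DN and 1.62 in TS. Their brightest genes, which weigh most in these sums, were Lpl (-0.43 in DN, -0.90 in TS) and Fabp4 (-0.02 and -0.43).

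Endothelial markers, which belong to a cell type known for binding protein expression, had 2 of 8 lower in DN and 1 in TS, beside 5.53% and 2.68% of all genes compared. Their sums were 5149 in DN, 5782 in TS and 6745 in Ct. Liver, the main source of circulating IGF1, is represented by 8 markers, of which 4 were below the limit of brightness. Albumin (Alb) read 6.48 in DN, 8.76 in TS and 5.97 in Ct, and the sums over all 8 markers, the dim ones included, were 1424 in DN, 1889 in TS and 1165 in Ct. The brightest of them, which weighs most in these sums, was transferrin (Tf), at 10.06 in DN, 10.15 in TS and 9.70 in Ct. Of the other markers bright enough, Apoa1 stood at 0.00 in DN and 0.08 in TS, and Apoa2 at 0.00 in both. Igfbp1, a binding protein gene of liver, read 5.39 in DN, 5.61 in TS and 5.39 in Ct, below the limit in every pool.

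Of 10 genes that soleus fibres express strongly, 4 were lower in DN (the slow-fibre genes Myl2, Myl3 and Atp2a2, and the creatine kinase gene Ckm) and 1, Myl2, in TS, with sums of 81759 in DN, 94052 in TS and 111745 in Ct, while the myoglobin gene Mb stood at 0.09 in DN and -0.34 in TS. Tendon markers had 4 of 6 lower in DN and 4 in TS, with 1 higher in DN, and summed to 2290 in DN, 2132 in TS and 4146 in Ct. Of 8 pericyte and smooth muscle markers, 3 were lower in DN and none in TS, with sums of 9239 in DN, 10164 in TS and 10769 in Ct. Of 6 Schwann cell and nerve markers, 1 was higher in DN and 2 in TS, led by Ncam1, which muscle fibres also express, at 2.32 in DN and 0.98 in TS, with sums of 5404 in DN, 4483 in TS and 3380 in Ct. Beside the counts of these 4 lists, 5.53% of all genes compared were lower in DN and 2.68% in TS, and 4.93% and 5.89% were higher.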

How the data were processed

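The log2 values were made by the authors before deposit with RMA, which corrects background, normalizes the arrays together and summarises each probe set by median polish, in Affymetrix Expression Console, as a core-exon analysis, per the labels' descriptions and the processing notes of the submitters. Base 2 is not stated and was read from the range (1.77 to 13.99). The tool's version and the build were not given in the sources used here. The series text speaks of 2 arrays; 3 samples with values, 1 per group, were used. The array medians were 6.33 in DN, 6.35 in TS and 6.32 in Ct.

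In the platform annotation, 15310 of 29170 probe sets had 1 gene symbol, 323 had more and 13537 lacked one. For 15279 of the 15310 the gene identifier was found in a table of GRCr8, and no symbol changed. A gene was represented by its brightest probe set by the mean of 3 arrays, and the 10154 genes at or above the 30th percentile of that mean (5.72) were compared. Differences were taken between arrays and counted at 1.5-fold; no p-value was computed, and the number of arrays limits the precision.

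The members and lists were chosen with earlier results of these data known. Named genes are all members, up to 4 genes per pathway list with the largest difference from Ct, the 3 genes nearest to each member past 1.5-fold, and leading markers. Mstn, Scx, Mb, Pappa, Igfbp1, Ghr, Socs2, Pax3, Calcr, Vcam1, Fbxo32, Klf15, Lpl and Fabp4 were named after their values were seen. Myog and Myod1 belong to none of the lists and were looked up in addition. Summed signals add 2 to the power of each marker's value. The calculation of differences and calls was run on simulated arrays with known changes, which checks the code and does not bear on how reliable these 3 arrays are. Alternatives were 3 scalings set in advance and 1 added later, adding 32 to linear values, leaving out the filter or setting it at the 50th percentile, averaging a gene's probe sets, and limits of 1.3-fold and 2-fold. Python 3.11.15 was used with pandas 2.3.3, numpy 2.4.6, statsmodels 0.14.6 and matplotlib 3.10.9.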

Additional observations from a re-analysis of the deposited data

How the results depend on the processing

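For DN minus Ct, the same 4 members (Igfbp5, Akt2, Igfbp4 and Irs1) were past 1.5-fold under each alternative scaling, filter and summary, and 2 of them, Igfbp5 and Akt2, at a 2-fold limit. For TS minus Ct, 3 members past the limit became 1 (Igfbp5) with a loess trend removed, with quantile normalization and with each array centred on its median over the genes compared, and 0 at 2-fold. The last scaling was chosen after seeing the data; it takes 0.13 from every TS minus Ct difference, moving the median of all genes compared to -0.12, and it set the median of the members at 0.20 for TS minus Ct and at 0.11 for DN minus TS. Relative to that shift, Igf1r and Igfbp4 were 0.48 above Ct in TS. Igf1r was also under the limit at 0.58, 0.52, 0.52 and 0.55 with arrays centred over all probe sets, the trend removed, quantile normalization and 32 added, and Igfbp4 at 0.54 and 0.55 with the trend removed and quantile normalization. For DN minus TS, 2 members past 1.5-fold became 0 at 2-fold and 5 at 1.3-fold, and Igf2 passed the limit at 0.65, 0.66 and 0.69 with the trend removed, quantile normalization and centring over the genes compared. Among all genes compared, 598 were higher and 272 lower in TS minus Ct, against 357 higher and 400 lower with that centring, which also split DN minus TS into 470 higher and 382 lower, against 325 and 602. Of the pathway genes named, Pik3r3, Fbxo32, Txnip, Sh2b1 (TS), Mstn and Pik3ip1 (DN) lost 1.5-fold, and Stc1 and Htra1 (TS) gained it, under at least 1 setting. The number of marker genes past 1.5-fold ranged over the settings from 2 to 4 for macrophages, from 1 to 2 for Schwann cells and nerve, from 0 to 2 for liver and from 1 to 2 for soleus fibres in TS, and from 2 to 3 for pericytes in DN; 1 tendon marker, Scx, was no longer higher in DN under 1 setting. No paired analysis was possible because each group has 1 array.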

Other observations

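Igf2 is an imprinted gene that lies beside H19, a noncoding RNA gene, on chromosome 1 of the rat (GRCr8), and 9 further imprinted genes were looked up after the values of Igf2 and H19 had been seen. H19 read 13.34 in DN, 12.61 in TS and 12.05 in Ct, higher by 1.29 (2.45-fold) in DN and by 0.56 in TS, whereas Igf2 was higher by 0.56 in DN and stood at -0.01 in TS. H19 was thus ordered DN, TS, Ct, like Igfbp5 and Akt2, and its TS value passed 1.5-fold under 2 of 9 settings. Of the others, Plagl1, a zinc finger transcription factor, was higher by 0.75 in DN and 0.76 in TS, Mest by 0.47 and 0.83, and Meg3 stood at -0.80 in DN and -0.23 in TS. Cdkn1c, a cell cycle inhibitor, was at -0.15 in DN and 0.52 in TS, and Dlk1 was at -0.01 in both. Ndn, Sgce and Gnas lay between -0.13 and 0.08 in both comparisons, and Peg3 was not analysed here.

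The myogenic regulators Myog and Myod1, whose expression accompanies that of Igf2 and Igfbp5 during myoblast differentiation in culture, were higher by 1.86 and 3.44 in DN and by 1.42 and 1.92 in TS. Igf2 stood at -0.01 in TS, and a link of these regulators with Igf2 or Igfbp5 was not tested.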
